A study of Mus musculus with 6 samples.

Results

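The subcortical maternal complex is an assembly of maternal proteins that builds up under the cortex of the growing mouse oocyte. Its transcripts were followed here through 8 genes chosen by symbol: Nlrp5, Ooep, Tle6, Khdc3, Padi6, Nlrp2, Nlrp4f and Zbed3. All 8 were found among the 25239 genes of the count table, and all 8 were among the 4644 genes that passed a filter on low counts. The libraries were 6 single oocytes at the germinal vesicle stage, before meiosis resumes, from female CD-1 mice of 4 to 6 weeks. CD-1 is an outbred strain. Cumulus-oocyte complexes from antral follicles had been injected with water (3 libraries) or with a mixture of phthalate metabolites (3 libraries), and both groups were then cultured in maturation medium with 10% fetal bovine serum, follicle-stimulating hormone at 200 mIU/mL and sodium pyruvate at 50 µg/mL. Phthalates are plasticizers. The labels used here give neither the dose nor the composition of the mixture, and they name no animal or culture behind an oocyte.

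For that reason each group counted as 1 sample. No difference between the groups was tested, and the 3 oocytes of a group show only how far single libraries lay apart. Library totals ranged from 252267 to 300917 gene counts. All 12 oocyte markers examined had counts, from 6702 to 7081 in sum per water library and from 5508 to 6694 per phthalate library. Of the 12, 3 had a log2 ratio of phthalate over water above 0 and 9 below, with a median of -0.074. Of the 4644 genes, 50.1% had a ratio below 0. Gdf9, Dppa3 and Zp3, the 3 highest per length, had log2 ratios of -0.072, -0.14 and 0.035, and Zp2 and Bmp15, named after their values were seen, had -0.34 and -0.31. Kit, the receptor for Kit ligand, had 179 counts over the water libraries and 110 over the phthalate libraries, a log2 ratio of -0.64 (95% exact interval -0.997 to -0.29). The 20 cumulus and granulosa markers summed to between 13 and 39 counts per water library and between 10 and 25 per phthalate library. Amh, Amhr2, Foxl2 and 7 others of these 20 were at 0, and Nr5a2 held 64 of the water group's 75 counts and 39 of the phthalate group's 54, a log2 ratio of -0.65 (-1.27 to -0.056). Theca, stroma and blood cell markers gave 6 counts over all water libraries and 0 over all phthalate libraries. The part of other cells' RNA in the values below was not tested.

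The complex is built around NLRP5, OOEP and TLE6, which bind each other directly, while KHDC3 joins this core as an RNA-binding partner. Embryos from females that lack Nlrp5, Ooep or Tle6 stop during the first cleavages, so the genes are classed as maternal effect genes. PADI6 is needed for the cytoplasmic lattices, fibrous arrays that store maternal proteins in the egg. The measurements here are of messenger RNA only, and the proteins were not measured.

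The promoters of 4 of these genes are shown because the results turn on them: Ooep was the steadiest of the 8 over water libraries, Tle6 and Khdc3 had the ratios furthest from 0 in opposite directions, and Zbed3 had the highest mean level per transcript length. Each sequence is the 250 bases before a RefSeq transcription start (build GRCm38.p6), 5′ to 3′ on the gene's strand. Capitals mark the E-box CANNTG, the site type of the oocyte factor FIGLA, and the element TAATTG, the site type of the oocyte homeobox factor NOBOX. On the opposite strand that element is written CAATTA. Both strands were searched. The windows are chr9:78378589-78378838 for Ooep (minus strand), chr10:81600901-81601150 for Tle6 (minus strand), chr9:73102148-73102397 for Khdc3 (plus strand) and chr13:95323355-95323604 for Zbed3 (plus strand). For Tle6 and Zbed3, which have 2 and 3 starts in the table, the outermost start is shown. The starts shown for Ooep, Tle6 and Khdc3 lie 137, 173 and 562 bases inside the spans that GENCODE M21 gives these genes, so the windows of Ooep and Tle6 lie in part, and that of Khdc3 as a whole, inside the annotated gene.
Ooep: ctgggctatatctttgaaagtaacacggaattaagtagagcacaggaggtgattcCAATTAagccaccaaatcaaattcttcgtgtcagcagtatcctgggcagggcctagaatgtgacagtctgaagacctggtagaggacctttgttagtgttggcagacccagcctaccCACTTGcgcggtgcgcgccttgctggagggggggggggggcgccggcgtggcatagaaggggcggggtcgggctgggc
Tle6: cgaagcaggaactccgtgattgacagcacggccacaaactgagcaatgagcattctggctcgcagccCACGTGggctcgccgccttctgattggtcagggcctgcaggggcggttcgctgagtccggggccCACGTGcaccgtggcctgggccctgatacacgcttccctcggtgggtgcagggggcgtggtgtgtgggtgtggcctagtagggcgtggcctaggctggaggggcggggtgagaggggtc
Khdc3: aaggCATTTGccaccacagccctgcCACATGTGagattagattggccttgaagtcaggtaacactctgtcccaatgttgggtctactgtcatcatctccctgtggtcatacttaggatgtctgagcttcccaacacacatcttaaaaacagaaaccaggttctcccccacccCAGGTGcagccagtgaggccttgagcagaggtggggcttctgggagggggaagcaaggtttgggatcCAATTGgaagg
Zbed3: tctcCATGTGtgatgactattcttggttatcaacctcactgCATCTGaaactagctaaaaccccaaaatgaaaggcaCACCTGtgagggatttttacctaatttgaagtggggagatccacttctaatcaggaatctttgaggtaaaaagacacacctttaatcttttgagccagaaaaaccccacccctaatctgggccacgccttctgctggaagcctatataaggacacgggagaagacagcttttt

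Of the 12 windows of the 8 genes, the TAATTG element occurred in that of Ooep alone, as CAATTA, apart from its single E-box. It was present in 7.17% of 32817 mouse promoter windows of the same length. E-boxes were present in 66.2% of those windows. Khdc3 had 5 E-boxes, of which 2 overlap in the run CACATGTG, Zbed3 had 3, and Tle6 had 2, both CACGTG. Among the other windows, only that of Nlrp2 had no E-box. These are matches of letters and say nothing of binding in these oocytes. Of the factors themselves only the messenger RNA was counted. Nobox had 129, 117 and 150 counts in the water libraries and 114, 131 and 118 in the phthalate libraries. Figla had 18, 16 and 7 against 0, 17 and 15.

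Levels of different genes were compared per transcript length, as TPM (counts per base of the longest GENCODE M21 transcript, scaled to 1000000 per library). Zbed3 was second of all 12543 genes with a length and a count, at a mean of 19177 TPM over the 6 libraries (range 14579 to 26796). Padi6 followed at 4638 (4217 to 5638, rank 21), Ooep at 3712 (2976 to 4216, rank 26), Tle6 at 3111 (2589 to 3850.3, rank 31) and Khdc3 at 1557 (1256 to 1962, rank 91). By this length the NLRP genes were lower: Nlrp4f had 522 (465 to 610.5, rank 329), Nlrp5 474 (363 to 537, rank 353) and Nlrp2 125 (84.3 to 161, rank 1313). Thus 5 of the 8 genes were among the 100 highest of the oocyte, and Nlrp5, a core subunit, stood far below its partners Ooep and Tle6.

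**Figure D1:**
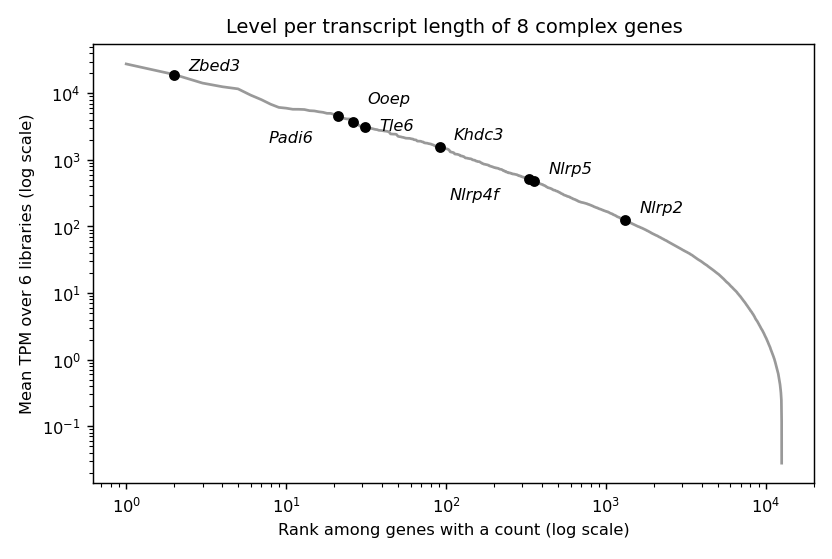
Mean TPM over the 6 libraries (log axis) against rank among 12543 genes with a length and a count (log axis); the grey line holds all genes and the black points are the 8 complex genes. Zbed3 stands at rank 2 and Nlrp2 at rank 1313.

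The order was the same in every library for most neighbours. Padi6 lay above Ooep in 6 of 6 libraries, with ranges that only just separated, and Tle6 lay above Khdc3 in 6 of 6. Ooep and Tle6 overlapped in range (5 of 6 libraries in this order), as did Nlrp4f and Nlrp5 (5 of 6). The order rests on the length chosen. The median length was far below the longest for Padi6 (649 against 2333 bases), Tle6 (625 against 2015), Nlrp2 (746 against 3404) and Nlrp4f (764 against 3551). It was closer for Khdc3 (1239.5 against 1681), Zbed3 (1894 against 1945) and Nlrp5 (3373 against 3508), and equal for Ooep (2138). With the median transcript length, Zbed3 had a mean of 9340.3 TPM (rank 5) and Padi6 7892 (rank 6), and Padi6 was above Zbed3 in 2 of 6 libraries. Tle6, at 4732, then stood above Ooep, at 1755. Nlrp4f, at 1146, had a higher mean than Khdc3, at 999, and Nlrp2, at 271, a higher mean than Nlrp5, at 233, each in 4 of 6 libraries. By that length 4 of the 8 genes were among the 100 highest.

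Within the summed TPM of the 8 genes, Zbed3 made up 57.0% on average (49.8% to 64.3%), Padi6 14.0%, Ooep 11.3%, Tle6 9.61%, Khdc3 4.71%, Nlrp4f 1.60%, Nlrp5 1.46% and Nlrp2 0.376%. By median length the share of Zbed3 was 35.1% and that of Padi6 29.9%.

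Families were taken by gene symbol, and several of these genes stood nearly alone in theirs. Padi6 held 8008 of the 8013 counts of the 5 Padi genes, Tle6 4605 of the 4676 of the 7 numbered Tle genes, and Zbed3 27671 of the 27741 of the 4 Zbed genes. Khdc3 held 1936 of 4228 counts of the 5 genes whose symbols begin with Khdc, of which Khdc1b is also oocyte-expressed. Ooep, also a KH-domain gene, and Dppa5a have other symbols and were not counted among them. The 3 NLRP members together had 27.5% of the 10577 counts of 20 Nlrp genes, and a non-member, Nlrp14, had more counts than any of them. NLRP genes resemble each other in sequence, and how the authors' counting treated reads that fit several copies is not given in the sources used here.

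Summed over the 8 genes, the complex took 2.94%, 2.99% and 3.15% of gene counts in water libraries 1, 2 and 3. In phthalate libraries 1, 2 and 3 it took 2.62%, 2.69% and 3.85%. Phthalate libraries 1 and 2 thus lay below all water libraries and library 3 above them. The water sum was 25849 counts (3.03%, 95% exact binomial interval 2.99 to 3.06), and the phthalate sum was 25116 (3.05%, 3.02 to 3.09). The log2 ratio of phthalate over water, after TMM scaling of the group totals, was 0.020 (95% interval -0.0048 to 0.045). All such intervals are exact and cover counting error only. Without phthalate library 3 the ratio was -0.21, and without phthalate library 2 it was 0.14. Without Zbed3 the remaining 7 genes gave 0.084 (0.047 to 0.12), from 11556 and 11738 counts. The CPM of these 7 was 13625, 13483 and 13237 in the water libraries and 13709.6, 13504 and 16019 in the phthalate libraries. Their ratio was 0.022 without phthalate library 3, 0.11 without phthalate library 1 and 0.14 without phthalate library 2. It was 0.071 to 0.092 with a water library left out.

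Per gene, values are CPM, counts per 1000000 scaled by TMM, and ratios are log2 of phthalate over water in summed counts. No gene of the complex reached a 1.5-fold difference, which 15.2% of the 4644 genes reached. Counting error widens the ratios of scarce genes, and of the 448 genes that averaged 100 counts or more per library, which include 7 of the 8, 1.34% reached it. None of the 8 reached 2-fold, which 2.78% of the 4644 did. The CPM ranges of the groups overlapped in all 8 genes; they did not overlap in 10.1% of the 4644. The median log2 ratio of the 8 was -0.021, beside -0.0015 for the 4644, with 3 genes above 0 and 5 below.

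Tle6, a Groucho-related protein of the core, had 2684, 2341 and 2299 CPM in the water libraries and 3193, 3315 and 2661 in the phthalate libraries. Phthalate libraries 1 and 2 were above every water library, and phthalate library 3 was just below water library 1. The sums were 2095 counts (95% exact Poisson interval 2006 to 2187) and 2510.0 (2413 to 2610.2), a log2 ratio of 0.32 (0.24 to 0.41). With counts halved to read pairs the interval was 0.20 to 0.44. Leaving out 1 library gave 0.26 to 0.42.

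Khdc3, the RNA-binding KH-domain partner also known as FILIA, had the lowest ratio. Its CPM was 1428, 1152 and 1284 in the water libraries and 881, 948 and 1237 in the phthalate libraries. Here too phthalate libraries 1 and 2 lay outside the water range, on the low side, while phthalate library 3 lay within it. From 1104 counts (1039.8 to 1171) and 832 (776 to 890.5), the log2 ratio was -0.35 (-0.48 to -0.22), and -0.53 to -0.16 was the interval on read pairs. It ran from -0.48 to -0.26 with 1 library left out. Gm20509, a protein-coding gene of GENCODE M21, overlaps Khdc3 on the same strand and is not among the counted genes. How reads in the overlap were counted is not given in the sources used here. Tle6 and Khdc3 were the 2 members at or past a ratio of 5 to 4 in either direction, which 37.4% of the 4644 genes reached, and 11.4% of the 448. Tle6 only just reached it. With library totals in place of TMM it did not, and with 1 library left out the number of members past this threshold ran from 0, without phthalate library 1 or 2, to 4, without phthalate library 3. The share of the 4644 genes past it was then 41.9%, 41.8% and 44.6%, and of the 448 it was 12.3%, 14.1% and 25.0%, in the order of phthalate libraries 1, 2 and 3 left out.

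The ratio of Tle6 to Khdc3 counts needs no scaling of libraries. It was 1.88, 2.03 and 1.79 in the water libraries and 3.62, 3.50 and 2.15 in the phthalate libraries, so the groups did not overlap. Of the 28 pairs of members, 4 had groups that did not overlap (14.3%). Leaving out the pairs with Nlrp2, which is not among the 448 genes, it was 4 of 21 (19.0%), beside 9.77% of 100128 pairs among the 448. The other 3 pairs were Nlrp5 with Tle6, Nlrp5 with Nlrp4f and Khdc3 with Padi6. The pairs share genes and libraries, and this view was chosen after the values were seen.

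Ooep, the KH-domain core subunit also known as FLOPED, was nearly constant in the water group at 3489.8, 3496 and 3445 CPM. In the phthalate group it had 3761, 2718 and 4101. Library 2 of that group was the lowest of all 6 and library 3 the highest, and the sums of 2988 and 2847 counts gave a log2 ratio of -0.0080 (-0.083 to 0.067). Without phthalate library 2 it was 0.17 and without phthalate library 3 it was -0.11.

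Nlrp5, also known as MATER, had 727, 836 and 769 CPM in the water libraries against 703, 733 and 615 in the phthalate libraries. Phthalate libraries 1 and 3 lay below the water range and library 2 just inside it. Its log2 ratio was -0.19 (-0.36 to -0.028), from 669 and 561 counts, and the read-pair interval of -0.42 to 0.043 included 0. It was -0.11 without phthalate library 3 and -0.25 without phthalate library 2. With library totals in place of TMM the groups did not overlap for Nlrp5, as for 10.0% of the 4644 genes and 9.15% of the 448.

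Padi6, a member of the peptidylarginine deiminase family, had 4288, 4601 and 4513 CPM in the water libraries and 4105, 4879 and 6350.0 in the phthalate libraries. Phthalate library 1 was the lowest of the 6 and library 3 stood well above the rest. The log2 ratio was 0.18 (0.11 to 0.24), from 3842 and 4166 counts, 0.022 without phthalate library 3 and 0.30 without phthalate library 1.

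Zbed3, a zinc finger protein that binds Axin and has been placed in the complex, had 14837, 16771 and 18248 CPM in the water libraries. The phthalate libraries had 11831, 12762 and 25163. Libraries 1 and 2 were below all water libraries and library 3 was above them, a 2.13-fold span within the group. In sum, 14293 and 13378 counts gave a log2 ratio of -0.034 (-0.068 to 0.00044), but it was -0.43 without phthalate library 3, 0.14 without phthalate library 1, 0.15 without phthalate library 2 and 0.035 without water library 3. A small nucleolar RNA gene, Snora47, lies within Zbed3 on the same strand and had 280 counts of its own.

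The other NLRP members are proteins associated with the core. Nlrp4f had 769.9, 893 and 737 CPM against 904, 789 and 798, ranges that largely coincided, and its log2 ratio was 0.036 (-0.12 to 0.19). Nlrp2 had 237, 165 and 190.4 CPM against 162, 123 and 257, from only 169 and 145 counts. Its ratio was -0.16 (-0.49 to 0.17), and it was -0.47 without phthalate library 3, -0.010 without water library 1 and, with the other sign, 0.084 without phthalate library 2. For Nlrp4f it was 0.13 without water library 2, and the sign changed to -0.022 without water library 3 and to -0.026 without phthalate library 1. Gm5065, which overlaps Nlrp2 on the opposite strand, had 83 counts, and the use of strand in counting is not given in the sources used here.

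**Figure D2:**
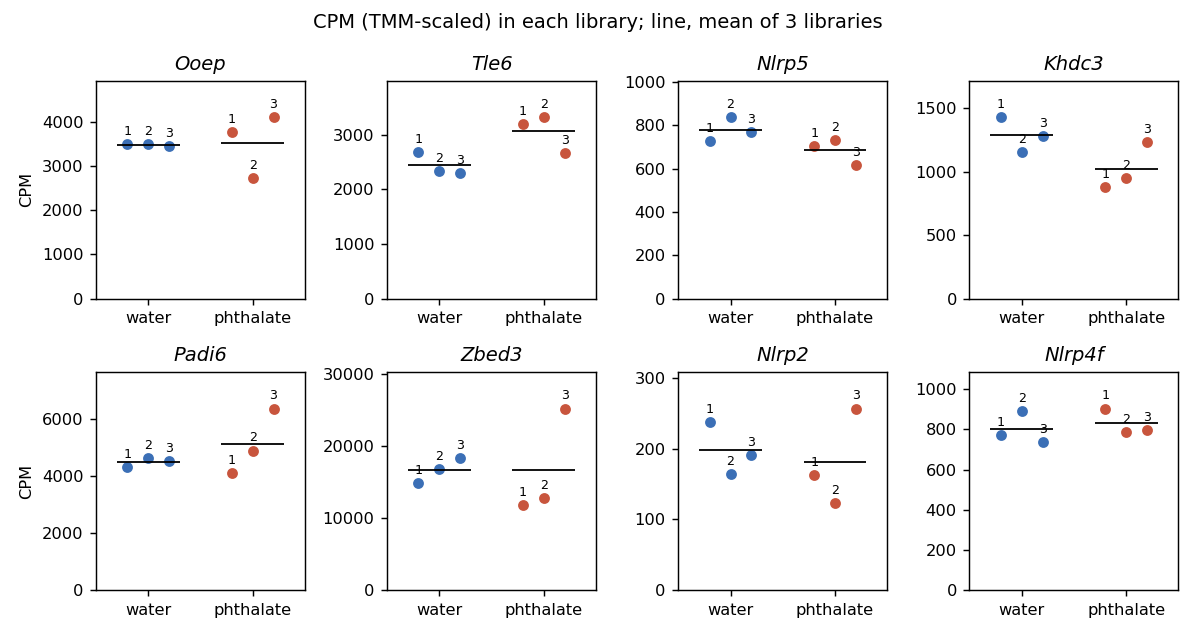
CPM of each complex gene (linear axes from 0) in the 3 water and 3 phthalate libraries; the digits are library numbers and the line is the mean of 3. Phthalate library 3 is the highest point for Ooep, Padi6, Zbed3 and Nlrp2, and the groups overlap in every panel.

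**Figure D3:**
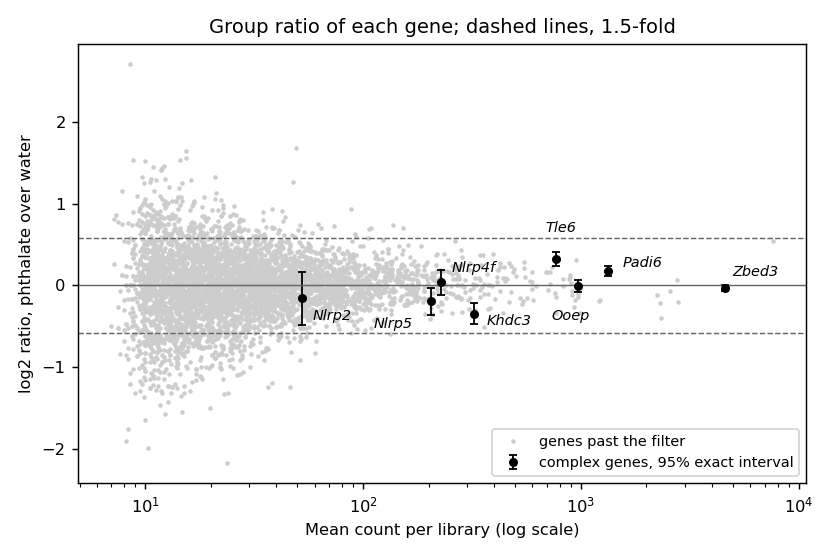
Log2 ratio of phthalate over water against mean count per library (log axis) for 4644 genes in grey and the 8 complex genes in black with 95% exact intervals; dashed lines mark 1.5-fold. All 8 lie between the dashed lines, from -0.35 for Khdc3 to 0.32 for Tle6.

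Phthalate library 3 was the highest of the 6 for 4 of the 8 genes, beside 19.5% of the 4644, and for 3 of the 7 that averaged 100 counts or more, beside 35.5% of the 448. It had the lowest TMM factor, 0.935 (0.990 to 1.03 in the others). The span of CPM within a group, highest over lowest, was wider among phthalate than water libraries for 6 of the 7 members that averaged 100 counts or more, the exception being Nlrp4f, and for 66.3% of the 448 genes. For Ooep the span was 1.01-fold over water libraries and 1.51-fold over phthalate libraries, and for Padi6 it was 1.07-fold and 1.55-fold. The comparison of spans and the count of genes highest in 1 library were chosen after the values were seen.

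**Figure D4:**
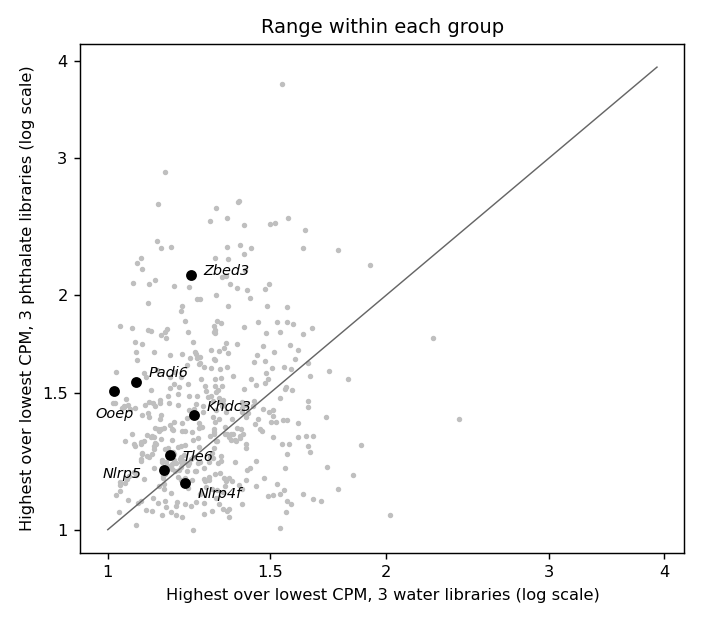
Highest over lowest CPM within the 3 phthalate libraries against that within the 3 water libraries (log axes) for 448 genes averaging 100 counts or more (grey) and 7 complex genes (black); the line marks equal spans. Ooep, Padi6 and Zbed3 lie well above the line.

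The profile of the summed complex over the 6 libraries was compared with those of 441 other genes of at least 100 mean counts, by the root-mean-square difference of centred log2 CPM. The nearest were Naca, a subunit of the nascent polypeptide-associated complex (0.080), Oas1e (0.083), Cox5b, a subunit of cytochrome c oxidase (0.087), Ftdc1 (0.093) and H1f8, the oocyte linker histone (0.093). The median over the 441 was 0.26. The points are 6 libraries that each gene shares, so this describes the libraries and no more.

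Among 12 partners of the complex or components of the lattices, all past the filter, 3 had a ratio above 0 and 9 below. Of the 4644 genes, 50.1% were below 0. The median log2 ratio of the 12 was -0.20, beside -0.0015 for all genes. Only Tubg1, which encodes gamma-tubulin, was past 1.5-fold, at -0.77 (-1.50 to -0.079) from 50 and 28 counts, and its groups overlapped. Of the 4644 genes, 15.2% were past 1.5-fold. Only Ywhae had groups that did not overlap, on the high side, at 0.56 (0.27 to 0.85). The groups did not overlap for 10.1% of the 4644. Cfl1 had 0.44 (0.17 to 0.71). Tubg1, Ywhae and Cfl1 are named after their values were seen. Of the 12, the 3 with the highest level per length were Skp1a, a subunit of SCF ubiquitin ligases, Nlrp14, and Uhrf1, a cofactor of DNA methylation. Skp1a had 1435, 1991 and 1929 CPM in the water libraries and 916, 1382 and 2420.2 in the phthalate libraries, where library 3 was again the highest of the 6 and library 1 the lowest. Its log2 ratio was -0.21 (-0.32 to -0.10), that of Nlrp14 0.17 (0.080 to 0.25) and that of Uhrf1 -0.067 (-0.24 to 0.10).

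Of 21 other maternal effect genes, 19 passed the filter, with 9 ratios above 0, 10 below and a median of -0.024. Hsf1, the heat shock transcription factor, was the one past 1.5-fold, from 30 and 52 counts, and is named after its value was seen. The share of the 4644 genes past 1.5-fold, 15.2%, stands beside this list and those below. Dppa3, Npm2 and Btg4 were the highest per length, with log2 ratios of -0.14 (-0.21 to -0.062), 0.17 (0.078 to 0.25) and -0.34 (-0.42 to -0.26). Of 9 oocyte transcription factors 5 passed the filter, none past 1.5-fold, with a median of 0.098 and Nobox at -0.064 (-0.27 to 0.15). Gtf2a1l, a germ cell form of a general transcription factor subunit, had 0.40 (0.097 to 0.71) and Lhx8, a LIM homeobox factor, 0.13 (-0.21 to 0.48). Of 34 genes listed as relatives of members, Dppa5a and Oosp1 among them, 13 passed, with a median of -0.015. Khdc1c alone was past 1.5-fold, from 27 and 42 counts, and is named after its value was seen. The highest per length were Oosp1 at -0.043 (-0.14 to 0.053), Dppa5a at -0.015 (-0.20 to 0.17) and Nlrp14, given above.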

How the data were processed

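Polyadenylated RNA of single oocytes was amplified with Smart-seq3 and sequenced as read pairs of 150 bp, per the labels' protocols. The table that the authors deposited holds raw counts for each gene symbol, with 92 ERCC spike-in rows, which were kept out of totals. The build mm10 and the tools cutadapt, Trimmomatic, HISAT2 and DESeq2 are named in the submitters' processing notes without roles; the counting tool, the annotation, strand use and molecular identifiers are not given in the sources used here. From 68.0% to 71.1% of the counts from 1 to 20 in a library were even, so both mates of a pair may have been counted, and counting intervals are then too narrow.

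The 4644 genes came from filterByExpr (minimum count 10, minimum total 15; edgeR 4.0.16, R 4.3.3). Ratios are of group sums over TMM-scaled group totals, with Clopper-Pearson 95% intervals of 2 counts given their sum (scipy 1.17.1), and a sum of 0 set to 3 counts. CPM used TMM factors per library. DESeq2 1.42.0 gave size factors for an alternative only. Transcript lengths were matched for 24366 of the 25239 symbols. The computation of the ratio and its interval was checked on simulated counts, drawn as independent Poisson values. Those counts hold no mate pairs, PCR copies or spread between oocytes. The check therefore says nothing of how well the intervals cover in these libraries. Named genes are all 8 members, of each further list the 3 highest per length and those past 1.5-fold with a mean count of at least 20, and the 5 nearest profiles. Further genes named in the text fall outside this rule and were added after their values were seen. Among them are Tubg1, Ywhae, Cfl1, Hsf1, Khdc1c, Zp2, Bmp15, Figla and Khdc1b, markers at 0 and genes that overlap members. Members and lists were chosen with earlier results of these data known. PCR copies are not independent molecules.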

Additional observations from a re-analysis of the deposited data

How the results depend on the processing

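The number of genes of the complex past 1.5-fold was 0 under DESeq2 size factors, library totals with and without Rn45s, no filter, means of CPM, read pairs and each library left out, 2 at a threshold of 5 to 4 and 0 at 2-fold. The summed ratio of 0.020 lay between 0.014 and 0.044 under these scalings, and was 0.084 without Zbed3, the most abundant member. Per ERCC count it was 0.15, but -0.44 without water library 1, which held 753 of the 1404 ERCC counts of its group, -0.25 without phthalate library 3, and 0.35 to 0.39 without any other library. Leaving out 1 library gave from -0.21 to 0.14, so its sign rested on single libraries. The number of members whose groups did not overlap was 0, 1 with library totals, and from 0 to 4 with 1 library left out, where fewer samples make a separation easier. The same held for 10.0% of the 4644 genes with library totals and for 18.2% to 24.5% with 1 library left out. The 4 members, without phthalate library 3, were Tle6, Khdc3, Nlrp2 and Zbed3, beside 24.5% of the 4644 and 34.4% of the 448. Over 12 alternatives the sign of the ratio held for Nlrp5, Tle6, Khdc3 and Padi6. The median of all genes moved by 0.032 with no filter and by at most 0.011 under the other alternatives. No paired analysis was possible because the labels name no animal or culture that would pair libraries, and no result here comes from a test. A fit that takes the library numbers as pairs was not run, by choice, since the labels do not say what the numbers share. Depth limits Nlrp2 most, at a mean of 52.3 counts per library. The cause of these shifts was not tested.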
